A study of Mus musculus with 10 samples.

Results

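Collagen genes encode the alpha chains that wind into the triple helices of the extracellular matrix. Every gene was taken whose symbol reads Col, a number, the letter a and a number, and whose array probes were annotated to that symbol alone. The rule gave 36 collagen genes on 62 probes, of 14654 genes on 22204 such probes in all. Following their assembly, 10 were fibrillar, 6 were the type IV chains of basement membranes and 20 were of other types. No measured value was used to choose them. Col6a3, Col6a4, Col6a5, Col12a1, Col20a1, Col22a1, Col24a1 and Col28a1 were not analysed here.

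Fibrillar collagens (types I, II, III, V, XI and XXVII) form the banded fibrils of connective tissue, with types V and XI acting as minor chains that set fibril diameter. Type IV chains form the sheet-like network under epithelia, around vessels and around muscle fibres. There Col4a1 and Col4a2 chains assemble with each other almost everywhere, and Col4a3, Col4a4, Col4a5 and Col4a6 chains enter more restricted networks. TNF-alpha is an inflammatory cytokine that acts through NF-kB, and SIRT6 is a chromatin-bound protein deacetylase.

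RNA from wild-type (WT) and Sirt6-/- (KO) mouse samples was compared on 10 spotted arrays after 0, 1.5, 6 and 24 h of TNF-alpha. Per genotype there were 2 untreated arrays (0 h), lettered a and b, and 1 array at each treated time, which makes 8 groups. The sources used here do not give the cell type, the dose or any other treatment. Nothing says whether arrays a and b came from separate cultures or animals. The p-values for genotype at 0 h and for the interactions therefore measure the spread between these arrays, which may be technical. Those for the genotype average and the TNF-alpha responses also include any change of the genotype difference between times, since treated groups have 1 array each. Every array compared Cy5-labelled sample RNA with Cy3-labelled universal mouse reference RNA. Values are taken as log2 of sample over reference and are centred on each array's median over genes. The labels state neither the log base nor the direction of the ratio. A value of 0 is thus a typical gene's ratio on that array, and ratios of different genes are not an order of abundance. In bulk RNA, fewer cells of a type and less RNA per cell cannot be told apart.

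Between 36822 and 38556 of 38784 spots had a value on an array. The arrays' SDs over spots ran from 0.551 to 0.983, and both the lowest and the second lowest belonged to WT arrays. The 0 h arrays correlated across all genes with r = 0.857 in WT and 0.690 in KO. Across the collagen genes the same r was 0.977 and 0.919. Sirt6 itself lay at -0.16 and 0.051 untreated and -0.15, 0.070 and -0.16 at 1.5, 6 and 24 h in WT, and -1.05 and -0.82 untreated and -0.76, -1.16 and -0.054 at 1.5, 6 and 24 h in KO. The array labelled KO at 24 h therefore lay within the WT range for the targeted gene. Some of the collagen estimates that include this array, not all, are also given without it. Of 9 fibroblast and mesenchyme markers, all were measured, and their mean ratio was 0.40 to 0.64 in WT and 0.32 to 0.58 in KO. Vim lay between 1.03 and 1.48, whereas Pdgfra lay between -3.41 and -2.02. The mean of 8 chondrocyte markers was -0.10 to 0.19 in WT and -0.53 to 0.014 in KO. The mean of 6 measured macrophage markers was -1.81 to -0.84 in WT and -1.66 to -0.76 in KO, and that of 4 epithelial markers -1.93 to -1.48 and -2.13 to -1.65. The means of 5 osteoblast markers were -0.33 to 0.081 and -0.64 to -0.048, of 8 endothelial markers -0.15 to -0.038 and -0.10 to 0.22, and of 5 smooth muscle markers 1.09 to 1.73 and 1.10 to 2.01.

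RefSeq promoter windows (build GRCm38.p6, 250 bases before to 50 after the start) matched 29 of the 36 genes. The 250 bases before the start are shown for Col4a5, Col5a1, Col5a3, Col16a1 and Col18a1, chosen after their values were seen because the genotypes differed in 1 direction at all 4 times, with Col4a6 as the head-to-head neighbour of Col4a5. Capitals mark GGGCGG, the core of an Sp-factor site, and CCAAT, the core of an NF-Y site, read on either strand (a match on the other strand appears as CCGCCC or ATTGG).
Col4a5 (chrX:141475169-141475418, + strand): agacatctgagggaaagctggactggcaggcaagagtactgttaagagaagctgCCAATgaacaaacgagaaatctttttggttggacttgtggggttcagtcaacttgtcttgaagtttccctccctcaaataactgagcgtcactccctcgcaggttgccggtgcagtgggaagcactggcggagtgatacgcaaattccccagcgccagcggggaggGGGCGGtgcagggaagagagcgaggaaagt
Col4a6 (chrX:141474077-141474326, - strand): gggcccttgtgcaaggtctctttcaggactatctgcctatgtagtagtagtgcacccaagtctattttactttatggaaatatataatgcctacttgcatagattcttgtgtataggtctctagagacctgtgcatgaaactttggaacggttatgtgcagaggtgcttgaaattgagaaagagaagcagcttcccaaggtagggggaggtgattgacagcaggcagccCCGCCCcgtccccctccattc
Col5a1 (chr2:27886175-27886424, + strand): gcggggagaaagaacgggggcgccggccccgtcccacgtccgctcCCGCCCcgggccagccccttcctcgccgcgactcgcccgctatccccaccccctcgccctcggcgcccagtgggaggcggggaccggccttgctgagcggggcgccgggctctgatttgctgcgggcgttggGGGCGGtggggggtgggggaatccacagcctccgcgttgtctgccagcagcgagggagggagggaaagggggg
Col5a3 (chr9:20815068-20815317, - strand): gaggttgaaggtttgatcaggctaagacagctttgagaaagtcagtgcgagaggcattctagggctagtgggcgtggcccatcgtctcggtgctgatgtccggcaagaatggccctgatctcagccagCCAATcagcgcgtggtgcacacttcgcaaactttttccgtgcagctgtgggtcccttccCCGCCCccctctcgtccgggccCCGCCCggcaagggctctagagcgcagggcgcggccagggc
Col16a1 (chr4:130047590-130047839, + strand): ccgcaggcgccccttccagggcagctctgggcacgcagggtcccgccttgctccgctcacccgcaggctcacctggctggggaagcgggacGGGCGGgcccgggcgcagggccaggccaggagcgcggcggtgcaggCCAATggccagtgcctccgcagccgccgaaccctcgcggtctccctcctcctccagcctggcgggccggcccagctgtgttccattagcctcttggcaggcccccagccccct
Col18a1 (chr10:77166531-77166780, - strand): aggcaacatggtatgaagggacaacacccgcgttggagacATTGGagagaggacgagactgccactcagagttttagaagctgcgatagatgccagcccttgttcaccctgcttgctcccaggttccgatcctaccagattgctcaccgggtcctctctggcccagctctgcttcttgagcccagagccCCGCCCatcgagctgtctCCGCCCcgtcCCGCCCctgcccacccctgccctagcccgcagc
The annotated starts of Col4a6 and Col4a5 point away from each other and lie 1343 bases apart. Those of Col4a1 and Col4a2, a pair also encoded on opposite strands, lie 21 bases apart, so that their windows overlap.
GGGCGG was found in 20 of 29 collagen genes (69.0%) and in 35.7% of all 32851 windows. CCAAT was found in 12 collagen genes (41.4%) and in 37.4% of windows, and TATAAA in 5 (17.2%) and in 13.6%. A match to the NF-kB consensus was present in Col27a1, Col9a1 and Col9a2 (10.3%) and in 4.51% of windows. Motifs were searched on both strands of the 300-base windows, no listed motif contains another, and a match describes the letters only. A collagen gene counted if any of its windows matched, and Col6a2, Col9a1 and Col18a1 had 2 windows each. The share over all windows counts single windows, so the units differ.

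Taken as sample over reference, 5 of 10 fibrillar and 2 of 6 basement membrane chains were above the reference RNA on every array. With the direction of the ratio turned, the same chains would lie below it, and every difference given here would change sign. The median over the 10 arrays exceeded 1 for 8 of 36 collagen genes (22.2%), against 3.70% of all genes. These were Col1a1, Col1a2, Col2a1, Col5a1 and Col5a2 of the fibrillar class, Col4a1 and Col4a2 of the basement membrane class, and Col8a1, a short-chain network collagen. The ratio exceeded 1 on all 10 arrays for 7 of them, against 1.37% of all genes, and Col1a2 missed this on 1 KO array at 0 h. No collagen gene had a median below -1, against 3.01% of all genes. Of the remaining genes, 3 were above 0 (Col7a1, Col10a1 and Col14a1) and 5 were below 0 on all arrays, and 20 had arrays on both sides of 0. The 5 genes below 0 throughout were Col3a1, Col4a6, Col6a1, Col16a1 and Col18a1, which span a fibrillar chain, a network chain, a beaded filament chain, a fibril-associated chain and the source of endostatin.

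Both type I chains were above the reference on every array and the type III chain, as the mean of its probes, was below it. Col1a1, a chain of type I collagen, lay at 1.83 and 1.73 untreated and 1.57, 1.96 and 1.82 at 1.5, 6 and 24 h in WT, and 1.56 and 1.73 untreated and 1.86, 1.71 and 1.87 at 1.5, 6 and 24 h in KO. Col1a2, its partner chain, lay at 1.40 and 1.11 untreated and 1.39, 1.48 and 1.46 at 1.5, 6 and 24 h in WT, and 0.997 and 1.40 untreated and 1.04, 1.58 and 1.09 at 1.5, 6 and 24 h in KO. Col3a1, the chain of type III collagen that accompanies type I in soft tissue, lay at -0.58 and -0.62 untreated and -0.31, -0.91 and -0.53 at 1.5, 6 and 24 h in WT, and -0.52 and -0.17 untreated and -0.16, -0.79 and -0.70 at 1.5, 6 and 24 h in KO. In each of these 3 genes the WT and KO arrays overlapped. The 2 Col3a1 probes disagreed. Probe 1 alone read 0.13 and 0.39 on the KO arrays at 0 h and 0.21 on the KO 1.5 h array. KO minus WT was 0.51 by probe 1 and -0.27 by probe 2.

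**Figure D1:**
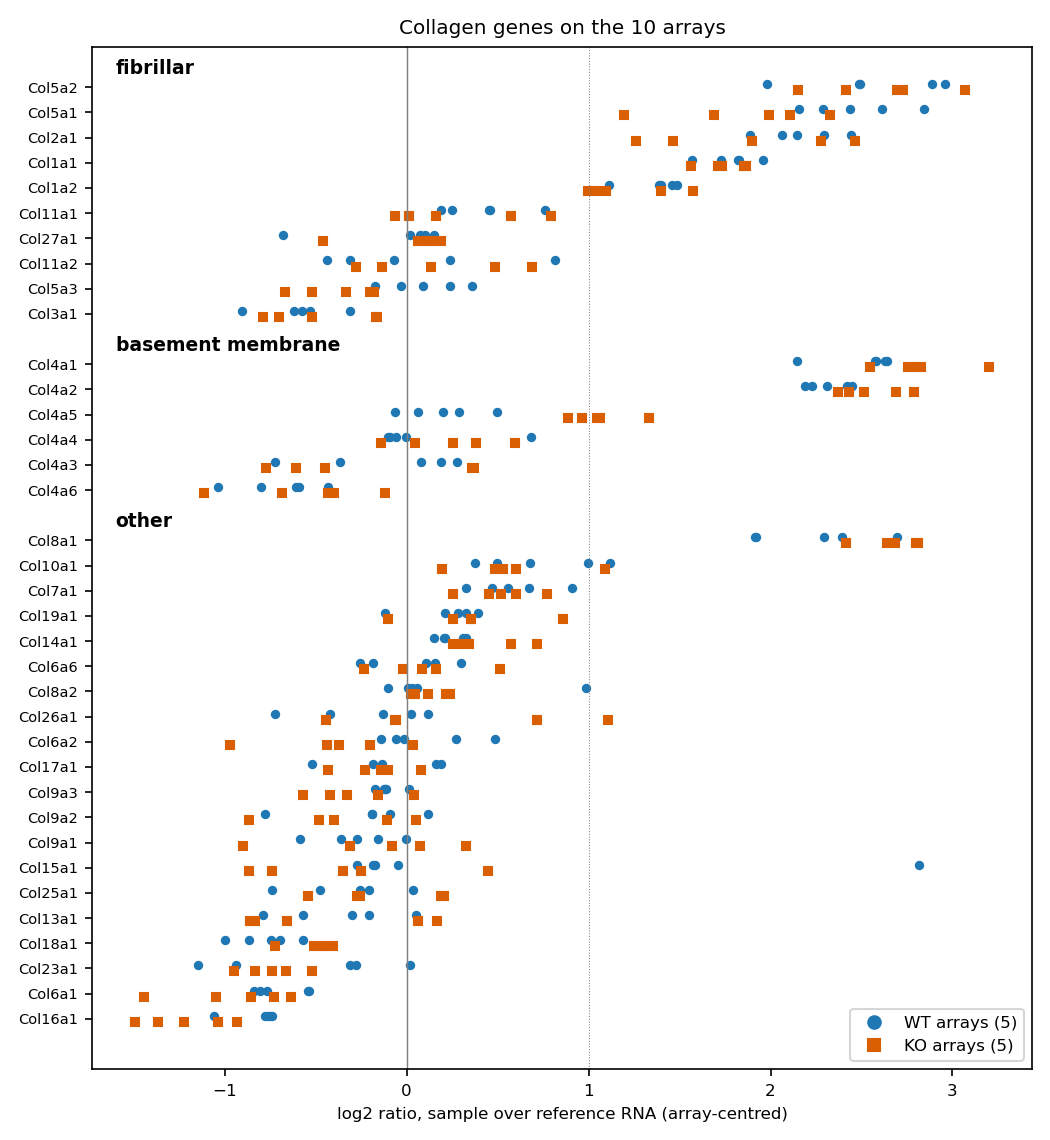
Log2 ratio of sample over reference RNA (horizontal axis, centred per array) for each of the 36 collagen genes, with 5 WT arrays as circles and 5 KO arrays as squares, grouped by class and ordered by median. The solid line marks 0 and the dotted line marks 1. The squares of Col4a5 all lie to the right of its circles, and those of Col5a3 all lie to the left.

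No collagen gene passed the test of genotype averaged over the times (limma with Benjamini-Hochberg adjustment over 14365 genes, 0 of 36 called, background 0% called). An unadjusted p under 0.05 was reached by 6 of 36 collagen genes, against 9.68% of all genes, with KO higher in 2 (all genes 4.23%) and lower in 4 (all genes 5.45%). The median genotype average was -0.049 for the collagens and -0.027 for all genes, in log2 KO minus WT. It was -0.080 for the fibrillar class, where 4 of 10 genes had a positive estimate, 0.19 for the basement membrane class, where 5 of 6 did, and -0.065 for the others, where 8 of 20 did. The estimates of Col4a1 and Col4a2 turned negative when arrays were scaled to an equal range, at -0.29 and -0.30. The 2 genotypes did not overlap in 2 of 36 collagen genes (5.56%), Col4a5 above WT and Col5a3 below it, against 2.24% of all genes (0.961% with KO above, 1.28% with KO below). Without the KO 6 h array the count was 4, against 4.85% of all genes, and without the array labelled KO at 24 h it was 2, against 4.58%. KO lay below WT at each of the 4 times in 3 of 36 collagen genes (Col5a1, Col5a3 and Col16a1), against 9.05% of all genes, and above WT in 2 (Col4a5 and Col18a1), against 5.97%.

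**Figure D2:**
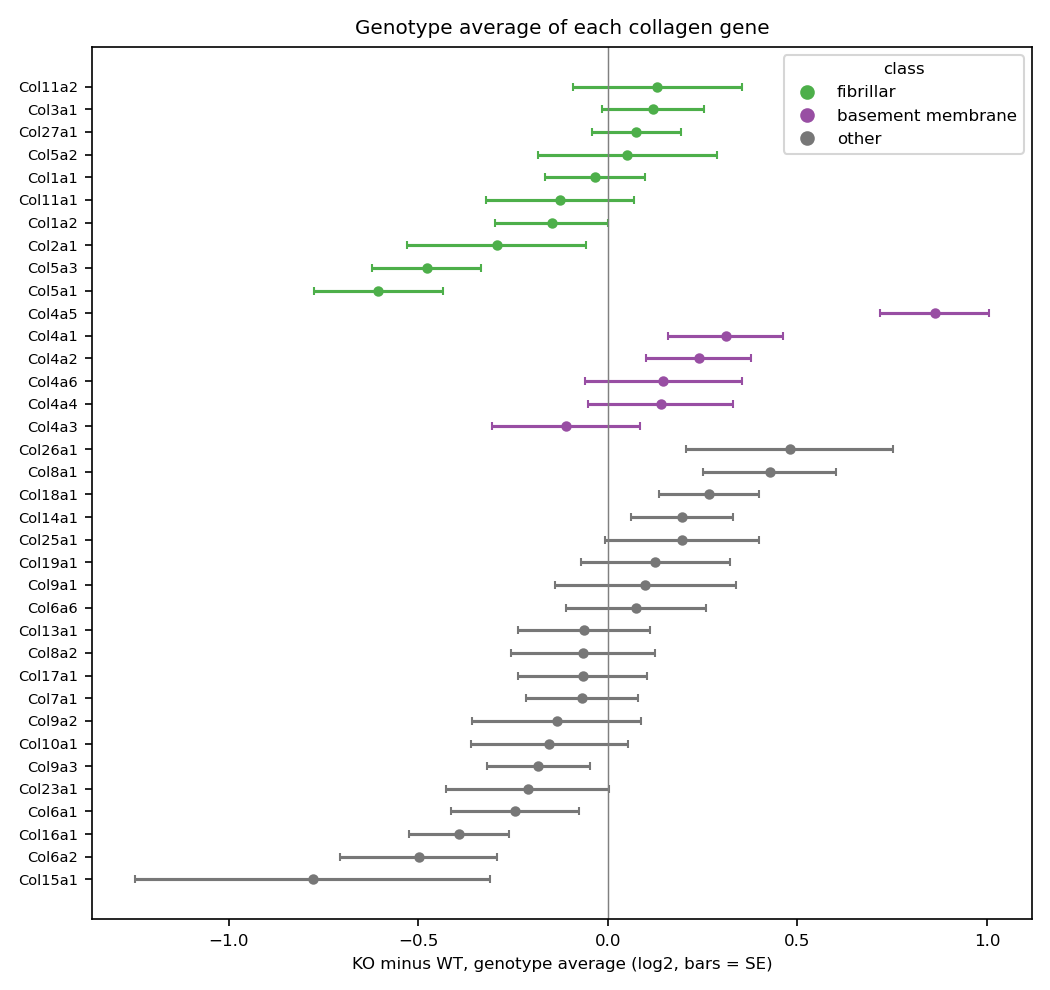
Genotype average of each collagen gene, KO minus WT on the log2 scale (horizontal axis), with bars of 1 standard error, coloured by class. Col4a5 has the highest estimate, at 0.86, and Col15a1 the lowest, at -0.78, with an error bar of 0.47 on either side. None passed the adjusted threshold.

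Col4a5, the X-linked chain of the restricted type IV networks, had the largest genotype average relative to its error among the collagens. Its ratio was 0.064 and 0.20 untreated and -0.064, 0.50 and 0.29 at 1.5, 6 and 24 h in WT, and 0.96 and 1.06 untreated and 1.05, 0.89 and 1.33 at 1.5, 6 and 24 h in KO. The lowest KO array exceeded the highest WT array, and KO was above WT at each of the 4 times, with differences of 0.88 untreated and 1.11, 0.39 and 1.05 at 1.5, 6 and 24 h (log2 KO minus WT). The genotype average was 0.86 (SE 0.14) in log2, a fold of 1.82, with an adjusted p of 0.311 from limma, so it was not called. Without the array labelled KO at 24 h it was 0.82 (adjusted p 0.457). With 1 array left out it ran from 0.80 to 0.98, and under the other alternatives from 0.77 to 0.94. Both Col4a5 probes separated the genotypes, the first with WT at 0.13 to 0.38 and KO at 0.77 to 1.53.

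Col4a6, the neighbour that pairs with Col4a5 in some basement membranes, did not share this separation. Its ratio, the mean of 3 probes, was -0.43 and -0.61 untreated and -0.59, -0.80 and -1.04 at 1.5, 6 and 24 h in WT, and -0.69 and -1.11 untreated and -0.43, -0.12 and -0.40 at 1.5, 6 and 24 h in KO. The genotypes overlapped, since KO lay below WT at 0 h and above it at the treated times, and the genotype average was 0.15 (SE 0.21). Its probes disagreed. The first separated the genotypes, with WT at -1.38 to -1.07 and KO at -0.80 to -0.092, whereas the second had KO lower on average, at -0.31. Over single probes, 4 of 61 collagen probes separated the genotypes (both of Col4a5, 1 of Col4a6 and that of Col5a3), against 2.14% of all probes (0.915% with KO above, 1.22% with KO below).

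Col4a1 and Col4a2, the ubiquitous pair, were above 2 on every array. Col4a1 lay at 2.15 and 2.63 untreated and 2.64, 2.58 and 2.58 at 1.5, 6 and 24 h in WT, and 2.79 and 2.83 untreated and 3.20, 2.54 and 2.75 at 1.5, 6 and 24 h in KO. Col4a2 lay at 2.19 and 2.42 untreated and 2.31, 2.45 and 2.23 at 1.5, 6 and 24 h in WT, and 2.52 and 2.37 untreated and 2.79, 2.43 and 2.69 at 1.5, 6 and 24 h in KO. The genotypes overlapped in both, and the genotype averages of 0.31 (SE 0.15) and 0.24 (SE 0.14) did not pass, with adjusted p of 0.547 and 0.601. Col4a3 ranged over -0.72 to 0.27 on the WT arrays and -0.77 to 0.37 on the KO arrays, and Col4a4 over -0.10 to 0.68 on the WT arrays and -0.14 to 0.59 on the KO arrays. A separate measure moved with genotype in the same direction as Col4a5. The mean of 6 measured striated muscle markers of 7 listed was -0.19 to -0.13 on the WT arrays and 0.20 to 0.71 on the KO arrays. Actc1, Mylpf, Tnni1 and Des were higher on every KO array than on every WT array, as were 0.961% of all genes. Tnnt2 and Myog overlapped between the genotypes. None of the 6 was called by limma, with genotype averages from 0.45 (Myog, adjusted p 0.607) to 0.88 (Actc1, adjusted p 0.311). The part of these markers in the Col4a5 values was not tested.

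**Figure D3:**
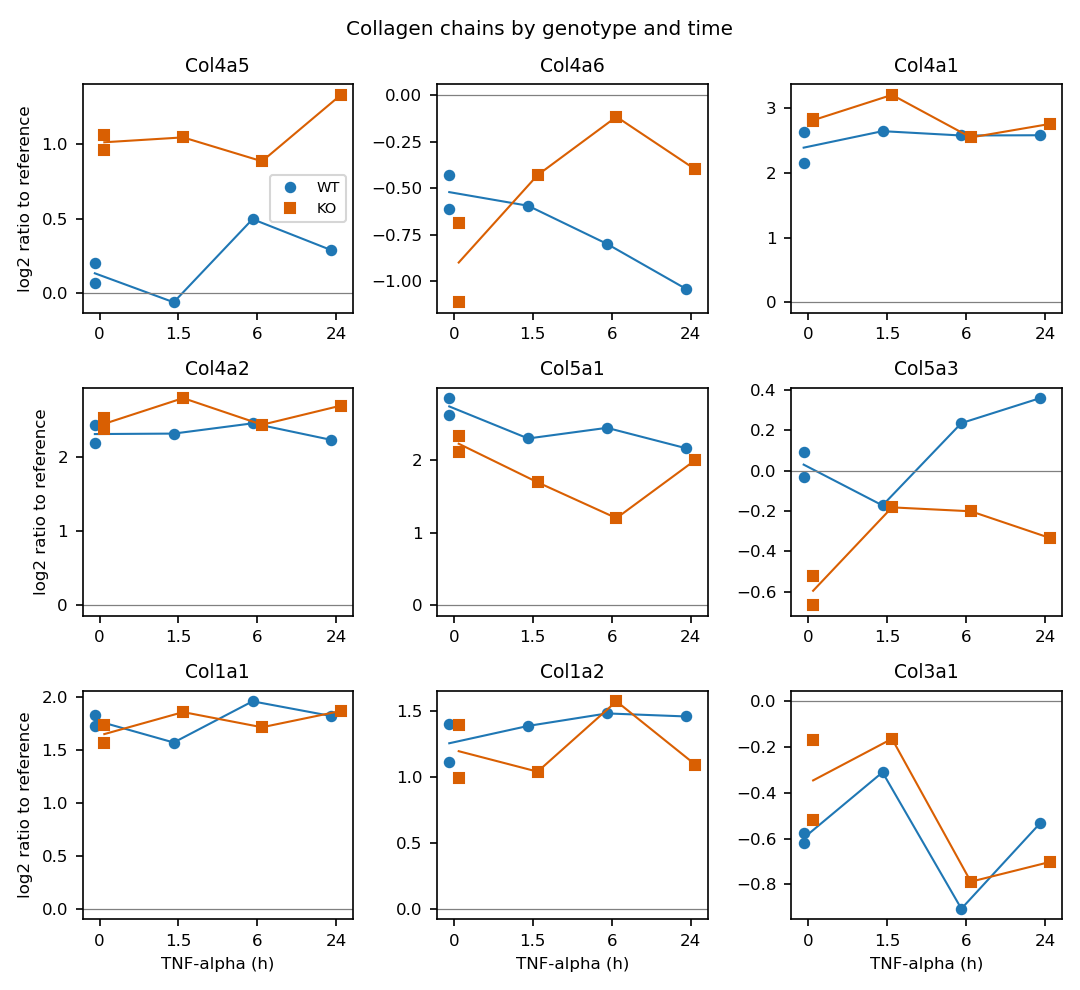
Log2 ratio to reference (vertical axes, which differ between panels) of 9 collagen chains against TNF-alpha time in hours, spaced evenly rather than to scale, with WT as circles and KO as squares. Symbols are single arrays and lines join the group means. Col4a5 squares lie above all circles, Col5a3 squares lie below all circles, and the Col1a1, Col1a2 and Col3a1 symbols interleave.

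Among fibrillar chains, Col5a1 and Col5a3, 2 of the 3 type V chains, had the lowest genotype averages. Col5a3, a chain of a restricted form of type V, lay at -0.030 and 0.090 untreated and -0.17, 0.24 and 0.36 at 1.5, 6 and 24 h in WT, and -0.52 and -0.67 untreated and -0.18, -0.20 and -0.33 at 1.5, 6 and 24 h in KO. All KO arrays were below all WT arrays, although the 1.5 h arrays differed by only -0.010 (KO minus WT). The genotype average was -0.48 (SE 0.14) with an adjusted p of 0.446, and -0.42 (adjusted p 0.468) without the array labelled KO at 24 h. Col5a1, the chain common to the main type V forms, lay at 2.61 and 2.84 untreated and 2.29, 2.44 and 2.16 at 1.5, 6 and 24 h in WT, and 2.33 and 2.11 untreated and 1.69, 1.20 and 1.99 at 1.5, 6 and 24 h in KO. KO was below WT at each of the 4 times, with differences of -0.51 untreated and -0.60, -1.24 and -0.16 at 1.5, 6 and 24 h (log2 KO minus WT), although the groups as wholes overlapped. Its genotype average was -0.60 (SE 0.17), with an adjusted p of 0.428, and -0.72 (adjusted p 0.457) without the array labelled KO at 24 h. It ran from -0.72 to -0.45 with 1 array left out and from -1.17 to -0.24 under the other alternatives. Col5a2, the other type V chain, lay at 2.49 and 2.49 untreated and 1.98, 2.96 and 2.88 at 1.5, 6 and 24 h in WT, and 3.07 and 2.69 untreated and 2.73, 2.15 and 2.42 at 1.5, 6 and 24 h in KO. The Col5a2 genotypes overlapped, and the genotype average was 0.052 (SE 0.24). Among the 9 fibroblast and mesenchyme markers, Prrx1, a mesenchymal transcription factor, alone separated the genotypes. All its KO arrays lay below all WT arrays, as in 1.28% of all genes. The other markers of that list overlapped between the genotypes, with genotype averages of both signs, from -0.32 (Thy1) to 0.32 (Pdgfrb). The limma genotype average of Prrx1 was -0.76 (SE 0.20) with an adjusted p of 0.404, or -0.69 (adjusted p 0.457) without the array labelled KO at 24 h. Its part in the type V values was not tested.

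No type I, II or III chain passed the genotype test. The genotype average was -0.034 (SE 0.13) for Col1a1, -0.15 (SE 0.15) for Col1a2 and 0.12 (SE 0.14) for Col3a1. Col2a1, the chain of cartilage collagen, had a genotype average of -0.29 (SE 0.23), with adjusted p values of 0.948, 0.761, 0.794 and 0.704 in that order of genes. Among the remaining types, Col8a1 lay at 1.92 and 2.29 untreated and 1.92, 2.39 and 2.70 at 1.5, 6 and 24 h in WT, and 2.41 and 2.81 untreated and 2.80, 2.68 and 2.64 at 1.5, 6 and 24 h in KO. Its genotype average was 0.43 (SE 0.17), with an adjusted p of 0.503, and it turned to -0.077 with arrays scaled to an equal range. Col16a1, a fibril-associated chain, ranged over -1.06 to -0.74 on the WT arrays and -1.49 to -0.93 on the KO arrays, with a genotype average of -0.39 (SE 0.13) and an adjusted p of 0.459. Col16a1 was lower in KO at each of the 4 times, with differences of -0.38 untreated and -0.43, -0.46 and -0.30 at 1.5, 6 and 24 h (log2 KO minus WT). For Col8a1 and Col16a1, leaving out the array labelled KO at 24 h gave genotype averages of 0.55 (adjusted p 0.457) and -0.42 (adjusted p 0.463). Col18a1, the basement membrane collagen that carries endostatin, lay at -0.70 and -0.87 untreated and -0.75, -0.998 and -0.57 at 1.5, 6 and 24 h in WT, and -0.47 and -0.51 untreated and -0.72, -0.41 and -0.44 at 1.5, 6 and 24 h in KO. Its genotypes overlapped.

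Type VI collagen forms beaded filaments between cells and fibrils. Col6a1 lay at -0.77 and -0.54 untreated and -0.54, -0.84 and -0.81 at 1.5, 6 and 24 h in WT, and -1.05 and -1.44 untreated and -0.73, -0.86 and -0.64 at 1.5, 6 and 24 h in KO. Col6a2 lay at -0.017 and 0.27 untreated and -0.058, -0.14 and 0.48 at 1.5, 6 and 24 h in WT, and -0.44 and -0.97 untreated and -0.20, 0.034 and -0.37 at 1.5, 6 and 24 h in KO. In both genes the 2 KO arrays at 0 h were below both WT arrays at 0 h, and the 3 treated KO arrays were above the KO arrays at 0 h. The genotype average of Col6a2 was -0.50 (SE 0.21), with an adjusted p of 0.504, and -0.41 (adjusted p 0.557) without the array labelled KO at 24 h. That of Col26a1, an emilin-related collagen, was 0.48 (SE 0.27), with an adjusted p of 0.601. Col15a1, a multiplexin of basement membrane zones, lay at -0.048 and -0.28 untreated and 2.81, -0.19 and -0.17 at 1.5, 6 and 24 h in WT, and -0.74 and 0.45 untreated and -0.35, -0.25 and -0.87 at 1.5, 6 and 24 h in KO. A single probe on a single array, WT at 1.5 h, stood far above the others, and the genotype average of -0.78 (SE 0.47) became -0.18 without that array. The anchoring fibril chain Col7a1 ranged over 0.33 to 0.91 on the WT arrays and 0.25 to 0.77 on the KO arrays, and the fibril-associated Col14a1 over 0.15 to 0.33 on the WT arrays and 0.26 to 0.71 on the KO arrays. A further 4 genes had arrays on both sides of 0 and overlapping genotypes. Over all arrays, Col6a6 lay between -0.26 and 0.51, Col9a1 between -0.90 and 0.32, Col9a3 between -0.57 and 0.040 and Col17a1, a hemidesmosome chain, between -0.52 and 0.19.

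At 0 h, before TNF-alpha, no collagen gene passed the test of KO against WT (limma, 0 of 36, background 0%). An unadjusted p under 0.05 was reached by 7 of 36 collagen genes, against 17.2% of all genes, with KO higher in 2 (all genes 7.66%) and lower in 5 (all genes 9.5%). The 5 largest estimates were 0.90 (SE 0.32) for Col26a1, 0.88 (SE 0.19) for Col4a5, -0.83 (SE 0.26) for Col6a2, -0.69 (SE 0.23) for Col9a2 and -0.66 (SE 0.23) for Col23a1, with adjusted p from 0.194 to 0.262. The 2 Col23a1 probes disagreed. Probe 1 read -0.0040 and -0.15 in WT and 0.039 and -0.32 in KO at 0 h. Probe 2 read 0.041 and -0.48 in WT and -1.93 and -1.01 in KO. Col26a1 lay at -0.72 and -0.42 untreated and -0.13, 0.12 and 0.026 at 1.5, 6 and 24 h in WT, and -0.063 and 0.72 untreated and -0.057, -0.44 and 1.11 at 1.5, 6 and 24 h in KO. Col9a2, a fibril-associated chain of cartilage, lay at -0.094 and 0.12 untreated and -0.19, -0.19 and -0.78 at 1.5, 6 and 24 h in WT, and -0.48 and -0.87 untreated and 0.052, -0.40 and -0.11 at 1.5, 6 and 24 h in KO. The spread in this test comes from the 2 pairs of 0 h arrays. Without KO array a it comes from the WT pair alone, and the lone KO array is assumed to vary as much. In that setting 7 of 36 collagen genes passed, against 22.7% of all genes, among them Col26a1 at 1.29 (adjusted p 0.0121), Col4a5 at 0.93 (adjusted p 0.0219), Col6a2 at -1.10 (adjusted p 0.0185) and Col9a2 at -0.88 (adjusted p 0.0286).

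TNF-alpha left the collagens without a called response. Averaged over genotypes, 0 of 36 passed at 1.5 h, 6 h and 24 h (limma), where 0.00696%, 0.0139% and 0.0139% of all genes passed. Unadjusted p-values under 0.05 occurred for 1 collagen gene at 1.5 h, 3 at 6 h and 1 at 24 h, against 3.73%, 2.88% and 7.08% of all genes. All were lower after TNF-alpha (all genes 2.51%, 1.66% and 3.2%) and 0 were higher (all genes 1.22%, 1.22% and 3.88%). The median responses of the collagens were 0.067, -0.0036 and 0.059, and those of all genes 0.011, 0.020 and 0.044.

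Col5a1 was the collagen gene whose treated arrays all lay below both 0 h arrays in both genotypes (1 of 36, against 1.18% of all genes). The mean of its treated arrays was lower than that at 0 h by a log2 difference of -0.43 in WT and -0.59 in KO. Its fitted responses at 1.5 h and 6 h were -0.48 (SE 0.23) and -0.66 (SE 0.23), with adjusted p of 0.997 and 0.999. Within KO alone, 6 collagen genes lay below both 0 h arrays on all 3 treated arrays (Col2a1, Col4a3, Col5a1, Col8a2, Col10a1 and Col14a1) and 6 lay above (Col4a6, Col5a3, Col6a1, Col6a2, Col9a2 and Col25a1). All genes did so in 10.7% and 12.9% of cases. Within WT, 2 lay below (Col5a1 and Col9a2) and 4 lay above (Col4a4, Col7a1, Col19a1 and Col26a1), against 16.4% and 15.3% of all genes. Col9a2 was thus apart in opposite directions in WT and KO, as were 5.01% of all genes.

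Col4a3, a chain of the glomerular type IV network, had the largest negative response at 1.5 h and 6 h. It lay at 0.081 and 0.19 untreated and -0.37, -0.72 and 0.27 at 1.5, 6 and 24 h in WT, and 0.36 and 0.37 untreated and -0.77, -0.45 and -0.61 at 1.5, 6 and 24 h in KO. The fitted responses were -0.82 (SE 0.27), -0.83 (SE 0.27) and -0.42 (SE 0.27) at the 3 times in order. At 24 h the WT array was back above its 0 h arrays and the array labelled KO was not, and without the latter the 24 h response was 0.066. Col27a1, a fibrillar chain, lay at 0.15 and 0.018 untreated and 0.075, 0.10 and -0.68 at 1.5, 6 and 24 h in WT, and 0.10 and 0.15 untreated and 0.19, 0.062 and -0.46 at 1.5, 6 and 24 h in KO. Both 24 h arrays were its lowest, with a response of -0.67 (SE 0.16) and an adjusted p of 0.621, and -0.76 without the array labelled KO at that time. Col13a1, a transmembrane chain, lay at -0.21 and -0.30 untreated and 0.050, -0.79 and -0.57 at 1.5, 6 and 24 h in WT, and -0.66 and 0.17 untreated and 0.060, -0.83 and -0.86 at 1.5, 6 and 24 h in KO. Its responses were -0.56 (SE 0.24) at 6 h and -0.46 (SE 0.24) at 24 h, and -0.32 at 24 h without the array labelled KO at that time, and its KO arrays at 0 h spanned most of its range.

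Other large fitted responses rested on 1 array or on values that overlapped. Col15a1 had 1.39 (SE 0.64) at 1.5 h, which was -0.10 without the WT array of that time. Col11a2, a chain of cartilage type XI collagen, had 0.54 (SE 0.30) at 1.5 h and 0.55 (SE 0.30) at 6 h. It lay at -0.44 and -0.068 untreated and 0.24, 0.82 and -0.31 at 1.5, 6 and 24 h in WT, and -0.28 and 0.48 untreated and 0.69, 0.13 and -0.14 at 1.5, 6 and 24 h in KO, with arrays of all times overlapping. Col26a1 had 0.69 (SE 0.37) at 24 h, or 0.31 without the array labelled KO at that time, and Col23a1, another transmembrane chain, had -0.41 (SE 0.29), or -0.61 without that array. The Col23a1 ratio was 0.018 and -0.31 untreated and -0.28, -1.15 and -0.94 at 1.5, 6 and 24 h in WT, and -0.95 and -0.66 untreated and -0.74, -0.52 and -0.83 at 1.5, 6 and 24 h in KO. As the mean of 2 probes, its WT arrays at 6 h and 24 h were low while the KO arrays were low at every time. The probes disagreed on the KO arrays at 0 h, where probe 1 read 0.039 and -0.32 and probe 2 read -1.93 and -1.01.

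The interaction asks whether the response to TNF-alpha differed between KO and WT. No collagen gene passed at 1.5, 6 or 24 h (limma, 0 of 36 each, against 0%, 0.00696% and 0.0278% of all genes). Unadjusted p-values under 0.05 occurred in 1, 6 and 5 of 36 collagen genes, against 3.72%, 13.9% and 13.1% of all genes. The interaction was positive in 0, 2 and 2 of these (all genes 2.23%, 7.57% and 7.46%) and negative in 1, 4 and 3 (all genes 1.49%, 6.29% and 5.68%). The collagen medians were 0.064, -0.12 and -0.21, and those of all genes 0.039, -0.032 and 0.056. Without centring, the collagen median became 0.14 at 6 h and -0.0077 at 24 h. Each interaction sets 1 treated array per genotype against 2 untreated ones.

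The fibrillar chains Col2a1 and Col5a2 had negative interactions at 6 h that did not pass. Col2a1, as the mean of 3 probes that disagreed, lay at 2.06 and 2.14 untreated and 1.89, 2.44 and 2.30 at 1.5, 6 and 24 h in WT, and 2.28 and 2.46 untreated and 1.90, 1.26 and 1.46 at 1.5, 6 and 24 h in KO. The KO arrays at 6 h and 24 h were its lowest and the WT arrays at those times among its highest, with an interaction of -1.45 (SE 0.34) at 6 h (adjusted p 0.243) and -1.10 (SE 0.34) at 24 h. For Col5a2, as the mean of 2 probes, the KO arrays at 6 h and 24 h lay below the KO arrays at 0 h. The WT arrays of those times lay above the WT arrays at 0 h, with an interaction of -1.20 (SE 0.38) at 6 h. By probe 1 alone the array labelled KO at 24 h read 3.93, above both KO arrays at 0 h. With arrays scaled to an equal range, the Col5a2 interaction at 6 h turned to 0.53 and that of Col2a1 at 24 h to 0.043. Without KO 0 h array a, 6 of 36 collagen genes passed at 6 h, against 18% of all genes, among them Col2a1 at -1.54 (adjusted p 0.0199) and Col26a1 at -1.85 (adjusted p 0.0171). Without KO 0 h array b, 1 passed, against 5.35% of all genes, Col5a2 at -1.39 (adjusted p 0.0496). The full fit gave -1.46 (SE 0.55) for Col26a1, 1.28 (SE 0.40) for Col23a1 and -1.06 (SE 0.42) for Col10a1, the network collagen of hypertrophic cartilage. Col10a1 lay at 0.68 and 0.50 untreated and 0.38, 0.998 and 1.12 at 1.5, 6 and 24 h in WT, and 1.09 and 0.60 untreated and 0.49, 0.19 and 0.53 at 1.5, 6 and 24 h in KO.

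Marker lists of other cell types were also examined at 6 h. The 6 h interaction was negative in all 5 smooth muscle markers (median -0.95), with Myh11 at -2.21 (SE 0.38, adjusted p 0.186) and Acta2 at -1.62 (SE 0.36, adjusted p 0.24). It was positive in all 6 measured macrophage markers (median 0.46), with Adgre1 at 3.52 (SE 0.38, adjusted p 0.144) and Ctss at 3.46 (SE 0.46, adjusted p 0.152), and in all 4 epithelial markers (median 0.58). The lowest of these positive values were 0.00675 for Tyrobp and 0.037 for Krt8. Signs were mixed in the fibroblast, chondrocyte, osteoblast, endothelial and striated muscle lists. There Chad had 1.64 and Acan -1.08, Pecam1 0.81 and Esam -1.64, and Tnni1 0.27 and Myog -1.14. None of these markers was called by limma. The KO 6 h array also had the narrowest spread of the KO arrays, with an SD over spots of 0.629. The WT 6 h array had the widest of the WT arrays, at 0.827. At 0 h the SDs were 0.554 and 0.622 in WT and 0.833 and 0.983 in KO. The part of these in the 6 h interactions of the collagens was not tested.

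At 24 h the fibril-associated Col9a2 had the largest interaction, 1.35 (SE 0.40), with an adjusted p of 0.295. Col25a1, a transmembrane collagen of neurons, had 1.24 (SE 0.38), and lay at -0.26 and 0.033 untreated and -0.21, -0.48 and -0.74 at 1.5, 6 and 24 h in WT, and -0.27 and -0.54 untreated and 0.19, -0.26 and 0.20 at 1.5, 6 and 24 h in KO. By its probe 1 alone the sign turned, to -0.61. Col8a2, the partner family member of Col8a1, had -1.15 (SE 0.32) and lay at 0.054 and 0.0070 untreated and 0.030, -0.10 and 0.98 at 1.5, 6 and 24 h in WT, and 0.24 and 0.22 untreated and 0.12, 0.048 and 0.026 at 1.5, 6 and 24 h in KO. The WT 24 h array was the outlying one for Col8a2, and of its 2 probes the first read 1.59 and the second 0.38 there. Col4a3 had -1.11 (SE 0.33). These 24 h values rest on the array labelled KO at 24 h and cannot be formed without it. Without KO 0 h array a, 6 of 36 collagen genes passed, against 14% of all genes, among them Col9a2 at 1.55 (adjusted p 0.0269) and Col25a1 at 1.37 (adjusted p 0.0422). At 1.5 h the largest were -3.18 (SE 0.72) for Col15a1, -0.94 (SE 0.49) for Col19a1, a fibril-associated chain, and 0.93 (SE 0.40) for Col9a2. Col15a1 passed without KO 0 h array a, at -3.77 (adjusted p 0.00907), and without array b, at -2.59 (adjusted p 0.0484), the 1 collagen gene to pass in each setting, against 2.53% and 0.292% of all genes. Col19a1 lay at -0.12 and 0.21 untreated and 0.33, 0.28 and 0.39 at 1.5, 6 and 24 h in WT, and 0.26 and 0.86 untreated and -0.10, 0.35 and 0.35 at 1.5, 6 and 24 h in KO.

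Several chains were read by probes that disagreed. Of 17 collagen genes with several probes, 3 had probe means more than 1 apart, Col2a1 (0.24 to 3.09), Col5a2 (1.72 and 3.45) and Col11a1 (-0.15 to 1.51), with a median gap of 0.59 over the 17. The probes of these genes split on the KO 6 h array. Col2a1 probes 1 and 3 read 1.08 and 2.11 there, their lowest values, and probe 2 read 0.60, its highest. Col5a2 probe 2 read 0.83, its lowest, and probe 1 read 3.47. Col11a1 probe 3 read 0.57 there against 1.39 to 1.67 on the WT arrays. The split differed on the array labelled KO at 24 h. Col2a1 probe 1 read 2.76 on it, within its WT range of 2.60 to 3.37. Probe 2 of Col2a1 read -0.52, its lowest, and probe 3 read 2.15. Col5a2 probe 1 read 3.93, its highest, and probe 2 read 0.90. For Col2a1 the interaction at 6 h was 0.45 by probe 2 alone, the opposite sign to the mean of its probes.

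**Figure D4:**
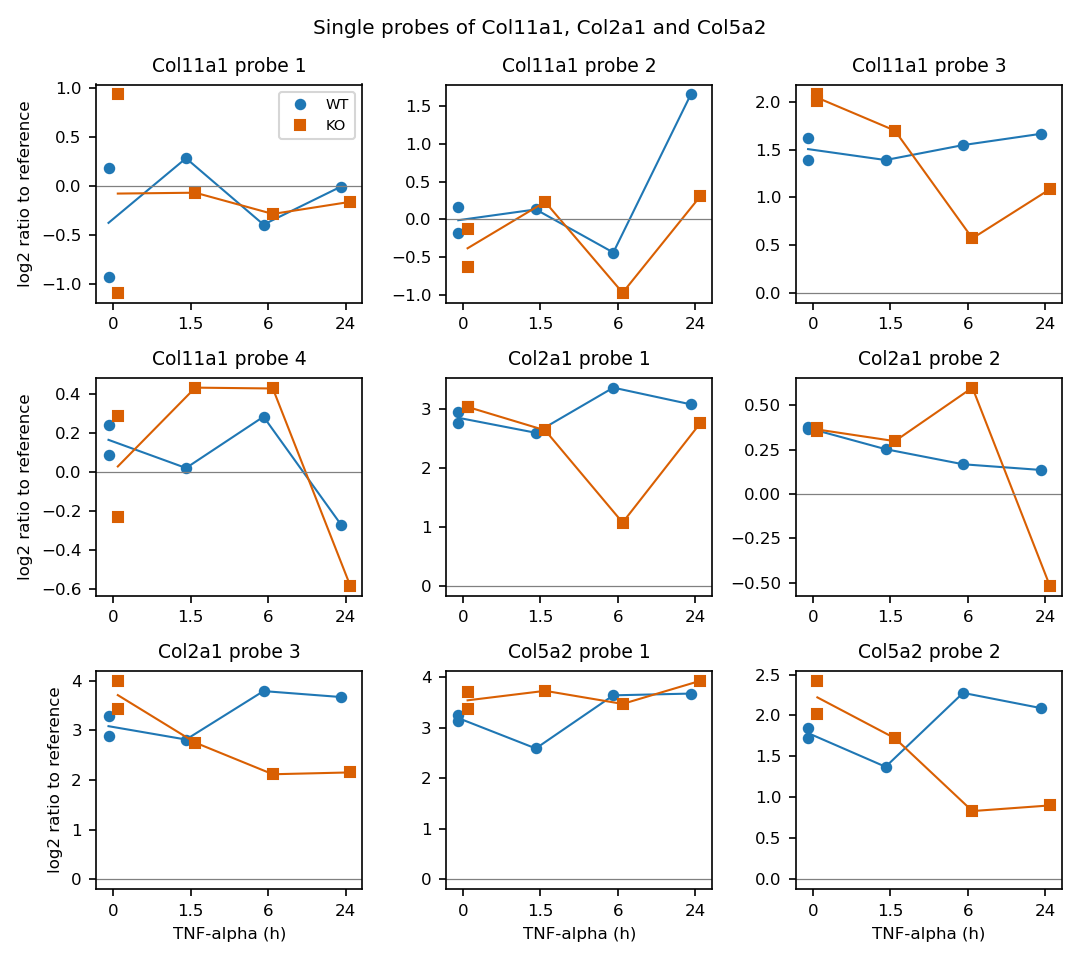
Log2 ratio to reference (vertical axes, which differ between panels) of each probe of Col11a1, Col2a1 and Col5a2 against TNF-alpha time in hours, evenly spaced, with WT as circles, KO as squares and lines through the group means. Col2a1 probes 1 and 3, Col5a2 probe 2 and Col11a1 probe 3 are low on the KO 6 h array, whereas Col2a1 probe 2 and Col5a2 probe 1 are not.

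Chains that assemble into 1 trimer, or that share a promoter or fibril, were compared across the 10 arrays in 11 pairs. Col4a5 and Col4a6 were left out because Col4a5 falls into separate genotype clusters. No pair passed after Benjamini-Hochberg adjustment of two-sided permutation tests. Col4a1 and Col4a2 had Pearson's r = 0.797 (permutation p 0.00568, adjusted 0.0625) and Spearman's rho = 0.552 (permutation p 0.105, adjusted 0.413). Without the 2 arrays farthest from the median of Col4a1, r was 0.409. Col6a1 and Col6a2 had r = 0.707 (permutation p 0.0297, adjusted 0.164) and rho = 0.418 (permutation p 0.233, adjusted 0.640), and r was -0.0799 without the 2 farthest arrays, so the relation rests on those. Col1a1 and Col1a2 had r = 0.160 (permutation p 0.652, adjusted 0.797) and rho = 0.176 (permutation p 0.631, adjusted 0.772). The 5 arrays of a genotype are too few for a correlation within it.

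Genes that build and bind collagen were counted in the same way, and none was called by genotype (limma, background 0%). Of 33 listed collagen processing genes (hydroxylases, chaperones, propeptidases and lysyl oxidases), 28 were measured, with a median genotype average of 0.0012 and 0 at an unadjusted p under 0.05, against 9.68% of all genes. The largest estimates were -0.53 (SE 0.34) for Tll1, a procollagen C-propeptidase, and -0.36 (SE 0.24) for Mia3, which loads procollagen into secretory carriers. Of 17 collagen-binding partners and receptors, 15 were measured, and 3 had an unadjusted p under 0.05, against the same 9.68%. Lum, which encodes the fibril-binding proteoglycan lumican, lay at -0.82 and -0.95 untreated and -0.046, -0.30 and -0.21 at 1.5, 6 and 24 h in WT, and 0.099 and 0.093 untreated and 0.091, -0.23 and 0.33 at 1.5, 6 and 24 h in KO. The KO arrays of Lum at 0 h were above the WT arrays, the 6 h arrays were close, and the genotype average was 0.54 (SE 0.18), with an adjusted p of 0.453, or 0.54 (adjusted p 0.468) without the array labelled KO at 24 h. Thbs1 and Thbs2, matricellular thrombospondins, had -0.45 (SE 0.17) and -0.43 (SE 0.14). All KO arrays of Thbs2 lay below all WT arrays, as in 1.28% of all genes. Without the array labelled KO at 24 h, Thbs1 and Thbs2 had -0.35 and -0.50. Of 14 genes of the TGF-beta axis, which drives collagen transcription, 12 were measured with a median of 0.017, and Tgfb2 alone had an unadjusted p under 0.05, at 0.42 (SE 0.18), or 0.46 without the array labelled KO at 24 h. That is 1 of 12, again against 9.68% of all genes.

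In the same 3 lists, none was called for a TNF-alpha response or an interaction. The median processing gene stood at 0.0057, 0.029 and 0.11 for the response at 1.5, 6 and 24 h. P4hb, the beta subunit of prolyl 4-hydroxylase, had the largest at 24 h, 0.70 (SE 0.24) with an adjusted p of 0.644. Among partners, Thbs1 had -0.996 (SE 0.23) at 1.5 h and 0.56 (SE 0.23) at 24 h, with adjusted p of 0.997 and 0.698, and Fn1, the fibronectin gene, had 0.45 (SE 0.16) at 24 h. Without the array labelled KO at 24 h, these 24 h responses were 0.49 for P4hb, 0.81 for Thbs1 and 0.56 for Fn1. The largest interaction in these lists was that of Dcn, which encodes decorin, at 3.28 (SE 0.42) and 6 h, with an adjusted p of 0.152. Dcn lay at -2.25 and -2.36 untreated and -2.25, -4.29 and -2.34 at 1.5, 6 and 24 h in WT, and -3.07 and -3.54 untreated and -2.45, -2.01 and -2.01 at 1.5, 6 and 24 h in KO.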

How the data were processed

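The deposited table holds, per spot and array, a log ratio taken as log2 of Cy5 sample over Cy3 reference. They span -8.23 to 8.97, a range too wide for a log10 ratio, and the sources used here do not give the authors' normalization. Per the labels' protocols, sample RNA was extracted with TRIzol and 15 ug of amplified RNA was labelled. Complete values existed for 36113 of 38784 spots. A gene's value is the mean of its probes with 1 symbol and complete values (14365 genes, all 36 collagens included), after which the median over genes was subtracted from each array. limma 3.58.1 in R 4.3.3 fitted genotype plus time (5 residual and 3.64 prior degrees of freedom) for the genotype average and TNF-alpha responses, and 8 group means (2 and 3.33) for genotype at 0 h and interactions. P-values are two-sided, adjusted by Benjamini-Hochberg over all genes and called under 0.05. Chain pairs used 100000 permutations. The fits were tested on simulated data. Named with values were the main chains and, per comparison, the 5 collagens with the largest estimate and up to 4 genes of each pathway list. Members and lists were chosen with earlier results of these data known. Alternatives varied centring, normalization, filters, probes, variance prior, array weights, spot trend, replicate block, model and arrays. The number of arrays limits the precision.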

Additional observations from a re-analysis of the deposited data

Results flagged for a closer look

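After TNF-alpha, Col9a2 values lay on opposite sides of their untreated values in the 2 genotypes. All 3 treated WT arrays lay below both WT arrays at 0 h (mean difference -0.40), and all 3 treated KO arrays lay above both KO arrays at 0 h (mean difference 0.52, or 0.50 over 2 treated arrays if the array labelled KO at 24 h is left out). The KO difference less the WT difference was 0.92 on the log2 scale. This difference over the treated arrays was not tested. By time, the limma interaction at 1.5 h was 0.93 (SE 0.40), that at 6 h was 0.48 (SE 0.40) and that at 24 h was 1.35 (SE 0.40), with adjusted p of 0.999, 0.63 and 0.295. Opposite patterns of this kind occurred in 1 of 36 collagen genes and in 5.01% of all genes.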

How the results depend on the processing

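No collagen gene was called under any alternative for the genotype average or the TNF-alpha responses. With 1 array left out, calls ranged from 0 to 7 for genotype at 0 h, 0 to 1 for the interaction at 1.5 h, and 0 to 6 for those at 6 h and 24 h. Those calls arose without a KO 0 h array, where 1 WT pair gives the spread. When WT at 24 h and KO array b at 0 h were both left out, the interaction was -2.59 for Col15a1 at 1.5 h and -1.39 for Col5a2 at 6 h. Collagen genes that separate the genotypes numbered 2, with 1 after quantile normalization, 4 after scaling arrays to an equal range and 2 to 4 with 1 array left out. Over all genes the count was 322, with 174 to 440 under the alternatives that keep every array and 378 to 696 with 1 array left out. The collagen median interaction, -0.12 at 6 h and -0.21 at 24 h, became 0.14 and -0.0077 without centring, and -0.011 at 24 h with the trend along spot order removed. Of 51 named estimates, 36 kept their direction under every alternative run and 15 did not, including Col1a1 among those near 0. Genotype averages reversed with scaling for Col4a1 (-0.29), Col4a2 (-0.30), Col8a1 (-0.077) and Col5a2 (-0.52). Col5a2 also reversed without centring (-0.017), with quantile normalization (-0.11), by probe 2 (-0.28) and with group means (-0.034), and Col1a1 with array weights (0.011). Single probes reversed Col3a1 (-0.27) and Col4a6 (-0.31) by genotype, Col2a1 in the response (0.019) and interaction (0.45) at 6 h, and Col25a1 in the interactions at 1.5 h (-0.41) and 24 h (-0.61). Scaling reversed the interactions of Col5a2 at 6 h (0.53) and Col2a1 at 24 h (0.043). With 1 array left out, estimates ran from -0.11 to 0.018 (Col1a1, genotype average), -0.12 to 0.27 (Col5a2, genotype average), -0.10 to 2.88 (Col15a1, 1.5 h), -0.94 to 0.17 (Col2a1, 6 h) and -0.90 to 0.066 (Col4a3, 24 h). Correlations reversed for Col11a1 with Col11a2 (-0.466 after trend removal) and Col9a1 with Col9a3 (0.168 without centring, 0.296 after trend removal). The cause of these changes was not tested. Across genes, the deviations of WT and KO array a from their group means correlated at r = -0.00527. With 1 pair per genotype, this cannot tell whether arrays of the same letter shared a source or handling. With the letters as a replicate block, 0 collagen genes were called in each comparison. The block leaves the values, and so the count of 2 that separate the genotypes, unchanged. Over all genes, calls with 1 array left out ran from 0 to 3264 for genotype at 0 h, 0 to 363, 0 to 2581 and 0 to 2004 for the interactions, 0 to 1 for the genotype average, and 0 to 4, 0 to 9 and 1 to 72 for the responses.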
